A study of Arabidopsis thaliana with 6 samples.

Results

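DNA repair genes were taken as the nuclear genes on Chr. 1 to Chr. 5 whose deposited Gene Ontology (GO) annotation holds the exact term DNA repair or the exact term for double-strand break repair via homologous recombination. The terms were carried by 204 of the 32243 listed genes, and the 182 genes with a mean count of at least 10 over all libraries are described here. Of these 182 genes, 148 carried the DNA repair term, 57 the homologous recombination term and 23 both. The other 22 genes with the terms stayed under the minimum, and 9 of them had 0 counts in every library. The genes just outside were *RMI1*, *CEN2* and AT3G27130, with mean counts of 8.33, 9.67 and 9.83, and those just inside were *FRG5*, AT3G25880 and *EME1A*, with 12, 14.5 and 14.7. The annotation is broad, because it also covers histone chaperones, cohesin, ubiquitin ligases and leucine-rich repeat proteins beside the enzymes that act on damaged DNA.

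Fully mature leaves were sampled from 3 plants of *flpl1* and 3 of Col-0, all equally old, and each plant gave 1 library. The *flpl1* plants belong to C30-81-as6, a late-flowering and petioleless line obtained by carbon-ion irradiation of Col-0 seeds. They carry an additional copy of Chr. 2, a translocation between Chr. 1 and Chr. 2 and single nucleotide variants, so the effect of the additional chromosome cannot be told apart from that of the other mutations of this line. The paper reports that *flpl1* flowers weeks later than Col-0, so equally old leaves may also differ in developmental stage. A difference in stage cannot be told apart from these effects either. Col-0 is the wild type from which the line was derived.

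Cells repair DNA by several routes. Small base lesions are cut out by glycosylases and endonucleases in base excision repair, UV lesions are removed as short oligonucleotides in nucleotide excision repair, and double-strand breaks are rejoined directly by end joining or copied from a sister chromatid by homologous recombination. Many of these proteins also act at replication forks, and in plants a part of them is made mainly in dividing cells or after DNA damage, when the transcription factor SOG1 switches on its targets. Fully grown leaf cells have mostly left the cell cycle.

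The 6 libraries held 19465078 to 24633070 counts on genes, and the TMM scaling factors lay between 0.929 and 1.13. Of the 5 leaf mesophyll markers, which include the Rubisco small subunit gene *RBCS1A*, 2 were upregulated in *flpl1*, and their summed FPKM was 23800 to 30200 in *flpl1* plants and 10300 to 15000 in Col-0 plants. The shoot meristem markers *STM*, *WUS*, *CLV3* and *KNAT1* summed to at most 0.16 FPKM in any library. Of the 4 floral organ markers, *AP1* was at 0 in every library, *AP3* had at most 0.38 FPKM, *AG* was upregulated (1.05 to 2.75 FPKM over all libraries) and *PI* was downregulated, with at most 0.05 FPKM in *flpl1* and 1.02 to 6.08 FPKM in Col-0. Of the 4 root markers, *COBL9* and *SMB* had at most 0.02 FPKM, *SCR* had 8.05 to 9.92 FPKM, and *PYK10* was downregulated, with at most 0.07 FPKM in *flpl1* and 0.29 to 4.56 FPKM in Col-0 (adjusted p = 0.0163, and 0.0556 and 0.057 without *flpl1* replicate 1 or 2). The part of these cell types in the results was not tested.

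Between *flpl1* and Col-0, 48 of the 182 DNA repair genes were upregulated and 10 were downregulated, by which an edgeR adjusted p under 0.05 together with a 2-fold or larger difference is meant. Over all 18638 genes tested, 19.8% were upregulated and 14.4% were downregulated by the same rule, against 26.4% and 5.49% of the DNA repair genes. With the adjusted p alone, 74 genes were higher and 35 lower in *flpl1*, where the shares over all genes tested were 30.9% and 30.7%. The FPKM values of the 2 groups did not overlap for 115 of the 182 genes, which is 63.2%, against 68.2% of all genes tested. The median log2 fold change, *flpl1* over Col-0, was 0.27 for the DNA repair genes and 0.00 for all genes tested.

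The minimum count favoured genes that are high in 1 group. Of the 182 genes, 15 reached a mean count of 10 in *flpl1* plants only, and 13 of these were upregulated, while none reached it in Col-0 plants only. Among the 167 genes that reached it in both groups, 35 or 21.0% were upregulated and 10 or 5.99% downregulated, beside 17.0% and 13.0% of the 17226 tested genes of all kinds that did so. The share upregulated was thus nearer to that of other genes than in the full set. When the test was limited to a mean FPKM of 5 or more, 104 of the 182 genes remained, with 11 or 10.6% upregulated and 3 or 2.88% downregulated, beside 16.2% and 11.9% of all genes under that filter. With limma on log2(FPKM + 1), 19 or 10.4% of the DNA repair genes were upregulated, beside 13.3% of all genes. In both of these alternatives the share upregulated was thus lower among the DNA repair genes than among all genes. The number of downregulated genes was 5 when the scaling factors came from Chr. 1, 3, 4 and 5 alone, 6 without *flpl1* replicate 1 and 5 without Col-0 replicate 3.

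The upregulated genes were mostly weak in Col-0 leaves. Their median FPKM per library was 4.39, 3.91 and 3.11 in *flpl1* plants and 0.565, 0.665 and 0.655 in Col-0 plants, and 25 of the 48 averaged under 1 FPKM in Col-0. The 10 downregulated genes had medians of 3.58, 3.21 and 3.58 FPKM in *flpl1* and 7.47, 10.9 and 10.4 FPKM in Col-0. Among the 29 DNA repair genes with a mean of 20 FPKM or more over the 6 libraries, 3 or 10.3% were upregulated and 2 or 6.9% downregulated, beside 15.5% and 15.4% of all tested genes at that level. Under 1 FPKM, 14 of the 22 DNA repair genes were upregulated, or 63.6%, beside 38.0% of all tested genes, so upregulation was also more frequent among weak genes in general. In *flpl1* plants the highest value of an upregulated gene was in replicate 1 for 31 of the 48 genes. The same replicate was the highest for 1679 of the 3697 upregulated genes of all kinds.

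**Figure D1:**
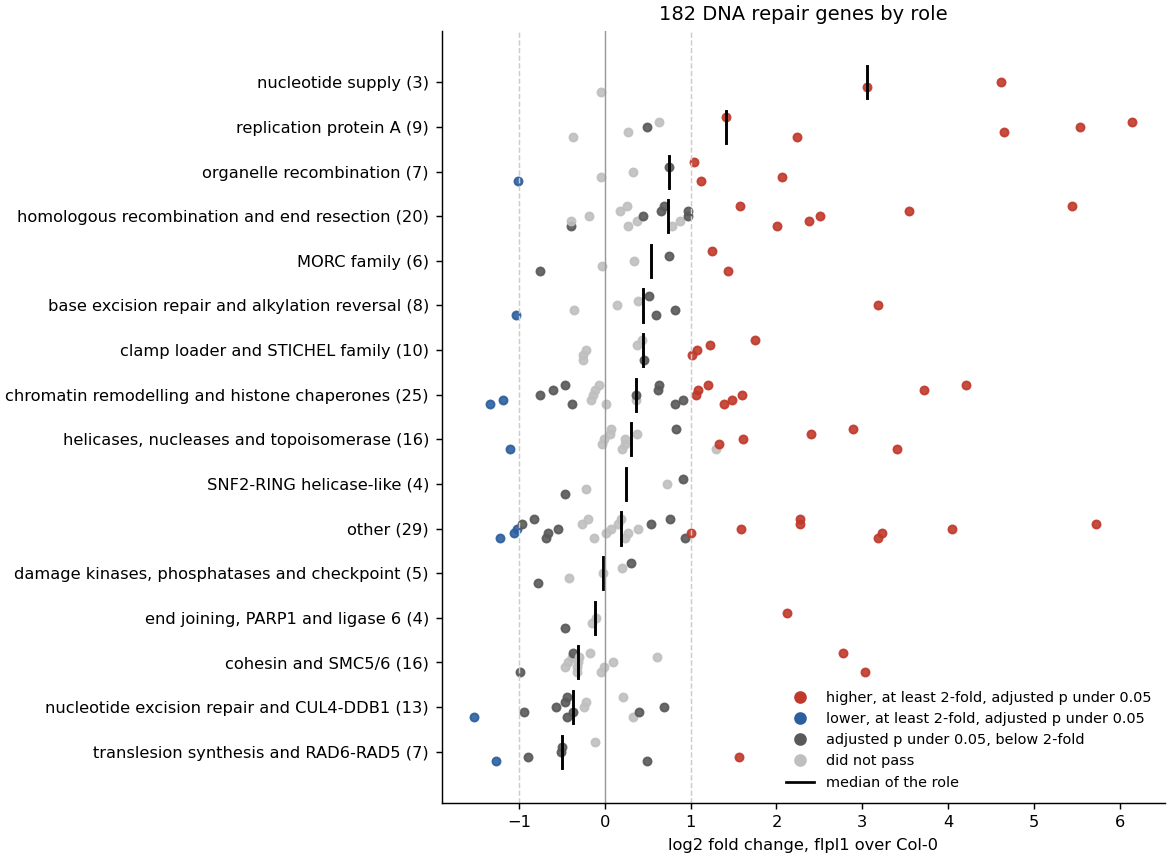
Log2 fold change (*flpl1* over Col-0, x axis) of the 182 DNA repair genes, 1 point per gene, in rows by role with the number of genes in parentheses. Points are coloured by the test result and black bars mark the median of each role, which was 3.06 for nucleotide supply and -0.50 for translesion synthesis. Dashed lines mark a 2-fold difference.

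The genes of replication protein A (RPA), the trimer that coats single-stranded DNA, differed between the copies of each subunit. In Arabidopsis, *RPA70B* and *RPA70D* encode large subunits used in replication, *RPA1A* the one used in meiosis, and *RPA70C* and *RPA1E* those used in repair. *RPA70D* (AT5G61000) had 6.46, 4.56 and 3.04 FPKM in *flpl1* plants, against 0.12, 0.08 and 0 FPKM in Col-0 plants. These Col-0 values stand for 6, 4 and 0 counts, so all 3 *flpl1* plants were clearly above the Col-0 plants but the size of the difference is poorly known (log2 fold change 6.14 ± 0.62 SE, adjusted p = 0.000225). *RPA70B* had 4.0, 2.67 and 2.43 FPKM in *flpl1*, against 0.18, 0.09 and 0.11 FPKM in Col-0 (4.65 ± 0.41, adjusted p = 0.000141).

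The small subunit gene *RPA3A* had 7.33, 4.73 and 3.18 FPKM in *flpl1*, against 0.15, 0.08 and 0.10 FPKM in Col-0, which are 2, 1 and 1 counts (log2 fold change 5.54 ± 0.57 SE, adjusted p = 0.000236). The middle subunit gene *RPA32A*, which lies on Chr. 2, had 5.44, 3.86 and 4.24 FPKM in *flpl1* and 0.99, 0.99 and 1.20 FPKM in Col-0 (2.24 ± 0.22, adjusted p = 0.000212). Other copies of the small and middle subunit genes differed less between the groups. *RPA3B* averaged 16.6 ± 2.0 FPKM in *flpl1* and 13.1 ± 1.21 FPKM in Col-0 (SD, n = 3 each) and had a log2 fold change of 0.49 ± 0.16 SE with an adjusted p of 0.0295, which was 0.0524 to 0.101 without *flpl1* replicate 1 or 2 or Col-0 replicate 2 or 3. *RPA32B* overlapped between the groups, with 4.40 to 6.49 FPKM in *flpl1* and 3.34 to 7.56 FPKM in Col-0. *RPA1A* had 3.65 to 3.68 FPKM in *flpl1* and 3.39 to 7.03 FPKM in Col-0 and did not pass the test, but had a log2 fold change of -0.58 with an adjusted p of 0.0126 without Col-0 replicate 1.

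Of the 9 RPA genes, 5 were upregulated (55.6%, beside 19.8% of all genes tested), none was downregulated and the median log2 fold change was 1.41. Of the 5, *RPA70D*, *RPA70B* and *RPA3A* reached the minimum mean count in *flpl1* only, where 90.3% of all tested genes were upregulated. The count and the median rest in part on these genes. The remaining upregulated gene was *RPA1E*, with 0.85, 0.52 and 0.51 FPKM in *flpl1* and 0.23, 0.19 and 0.37 FPKM in Col-0 (1.41 ± 0.41 SE, adjusted p = 0.0201). Its call was lost without *flpl1* replicate 1 (adjusted p = 0.0762) and without Col-0 replicate 2 (adjusted p = 0.0696).

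In homologous recombination, 6 of the 20 genes of recombination and end resection were upregulated (30.0%) and none was downregulated, beside 19.8% and 14.4% of all genes tested. Of the 6, *BARD1*, *BRCA1* and *COM1* reached the minimum mean count in *flpl1* only. Of all tested genes that did so, 90.3% were upregulated. BRCA1 and BARD1 form a ubiquitin ligase that acts early in recombination, and BRCA2 proteins act on the single-stranded DNA that follows. *BARD1* had 2.85, 2.12 and 1.78 FPKM in *flpl1*, against 0.03, 0.09 and 0.04 FPKM in Col-0, where the counts were 2, 5 and 2 (log2 fold change 5.44 ± 0.42 SE, adjusted p = 0.000104). *BRCA1* had 1.81, 1.03 and 0.93 FPKM in *flpl1* and 0.19, 0.09 and 0.07 FPKM in Col-0 (3.54 ± 0.51, adjusted p = 0.000936). Every *flpl1* plant was above every Col-0 plant for both partners.

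*BRCA2A* had 2.31, 1.9 and 1.27 FPKM in *flpl1* and 0.43, 0.32 and 0.31 FPKM in Col-0 (2.51 ± 0.33, adjusted p = 0.000599). *BRCA2B* had 1.51, 1.14 and 1.09 FPKM in *flpl1* and 0.23, 0.25 and 0.32 FPKM in Col-0 (2.38 ± 0.28, adjusted p = 0.000382). The 2 *BRCA2* genes share a stretch of 3142 bp with 95% identity, which is 74.0% of the exons of *BRCA2A*, so reads could be assigned to either copy and the division between them is uncertain. *RAD54*, a DNA translocase of the same route, had 0.67, 0.32 and 0.71 FPKM in *flpl1* and 0.11, 0.15 and 0.21 FPKM in Col-0 (2.01 ± 0.43, adjusted p = 0.00531).

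**Figure D2:**
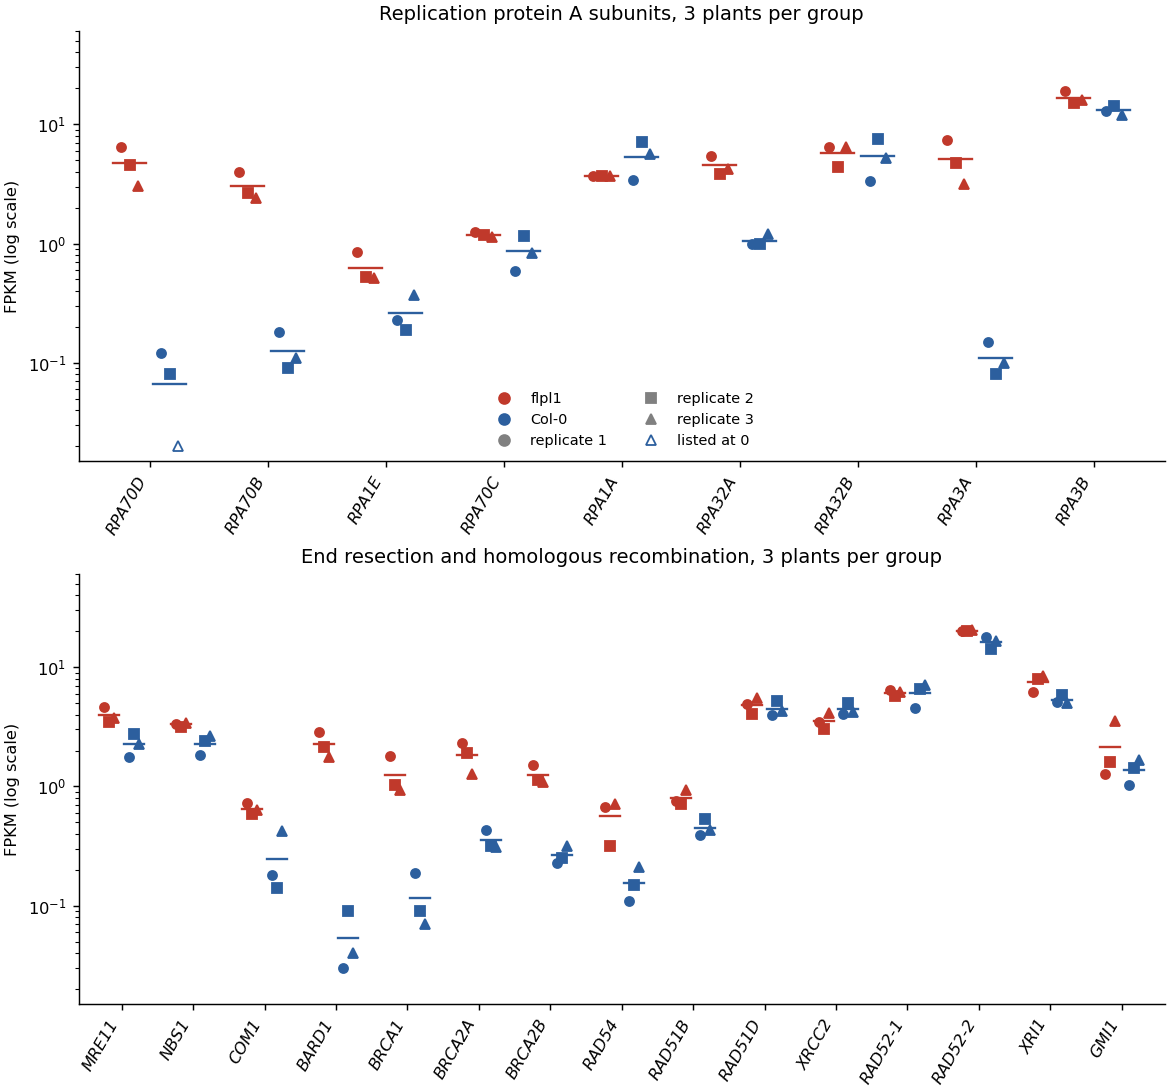
FPKM on a log scale (y axis) of the RPA subunit genes (upper panel) and of the genes of end resection and homologous recombination (lower panel) in 3 *flpl1* plants (red, left of each pair) and 3 Col-0 plants (blue, right). Symbols stand for the replicates, bars for the group means, and the open triangle for *RPA70D* in Col-0 replicate 3, which was listed at 0. *RPA70D*, *RPA70B*, *RPA3A*, *BARD1* and *BRCA1* lay below 0.2 FPKM in Col-0 and at 0.93 FPKM or more in *flpl1*.

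The nuclease complex that senses and trims broken ends changed less. *MRE11* had 4.66, 3.45 and 3.74 FPKM in *flpl1* and 1.77, 2.74 and 2.26 FPKM in Col-0 (0.97 ± 0.19 SE, adjusted p = 0.00352), and its partner *NBS1* had a log2 fold change of 0.69 ± 0.19 (adjusted p = 0.0139). Their partner *RAD50* does not carry the terms and did not pass the test (-0.31 ± 0.18), but did without Col-0 replicate 1 (-0.47, adjusted p = 0.0215). *COM1*, which starts end resection, averaged 0.647 ± 0.0666 FPKM in *flpl1* and 0.247 ± 0.151 FPKM in Col-0 (SD, n = 3 each; log2 fold change 1.58 ± 0.47 SE, adjusted p = 0.0209). The adjusted p of *COM1* was between 0.0518 and 0.0684 without *flpl1* replicate 1 or 2 and without Col-0 replicate 1 or 2.

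Of the further recombination genes, *RAD51D*, *XRCC2* and *RAD52-1* were close to their Col-0 level. They had log2 fold changes of 0.26, -0.18 and 0.18 and did not pass the test. *RAD51B* (0.97 ± 0.32 SE, adjusted p = 0.0301) and *RAD52-2* (0.45 ± 0.16, adjusted p = 0.0406) passed, but DESeq2 gave 0.0587 for *RAD51B*, and leaving out any single library gave 0.0632 to 0.0944 for *RAD51B*. For *RAD52-2* all libraries except Col-0 replicate 1 could end the call, with 0.0761 to 0.108 without 1 of them. In a list of 18 genes of homologous recombination, members or not, 6 were upregulated (33.3%, beside 19.8% of all genes tested) and none was downregulated. A positive log2 fold change was found for 17 of them, with a median of 0.72 over the list.

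Of the 3 genes of nucleotide supply, 2 were upregulated, and 1 of these, *DUT1*, reached the minimum mean count in *flpl1* only. *DUT1*, the dUTPase that keeps uracil out of DNA, had 8.54, 8.41 and 5.70 FPKM in *flpl1* and 0.16, 0.40 and 0.47 FPKM in Col-0 (4.62 ± 0.40 SE, adjusted p = 0.000138). *TSO2*, a small subunit of ribonucleotide reductase, had 32.8, 23.8 and 14.9 FPKM in *flpl1* and 4.33, 2.63 and 2.41 FPKM in Col-0 (3.06 ± 0.39, adjusted p = 0.000517). The other small subunit gene, *RNR2A*, had 29.9, 29.9 and 23.1 FPKM in *flpl1* and 23.9, 36.01 and 36.55 FPKM in Col-0 and did not pass the test.

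Of the 16 helicases, nucleases and topoisomerases, 5 were upregulated (31.2%) and 1 was downregulated (6.25%), beside 19.8% and 14.4% of all genes tested. Of these, *RECQI1* reached the minimum mean count in *flpl1* only. The RecQ helicase gene *RECQI1* had 1.53, 1.28 and 0.98 FPKM in *flpl1* and 0.16, 0.10 and 0.12 FPKM in Col-0 (3.41 ± 0.39 SE, adjusted p = 0.000341). *TOP3A*, the topoisomerase that dissolves joined chromatids, had 1.12, 1.16 and 0.93 FPKM in *flpl1* and 0.16, 0.23 and 0.08 FPKM in Col-0 (2.89 ± 0.38, adjusted p = 0.00063). Both had little transcript in Col-0 leaves. *RECQ4A*, a helicase of the same pathway, averaged 4.92 ± 1.68 FPKM in *flpl1* and 2.18 ± 0.484 FPKM in Col-0 (SD, n = 3 each; 1.33 ± 0.27, adjusted p = 0.0038), and its copy *RECQ4B* did not pass the test (0.06 ± 0.21).

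The structure-specific nuclease gene *MUS81* went the other way, with 0.61, 1.08 and 1.34 FPKM in *flpl1* and 1.67, 3.18 and 2.49 FPKM in Col-0 (-1.11 ± 0.33, adjusted p = 0.0218). Its call was lost without *flpl1* replicate 1 or 2 and without Col-0 replicate 2 or 3, where the adjusted p was between 0.0511 and 0.0676. *EME1B*, which encodes a partner of MUS81 and lies on Chr. 2, was upregulated (2.40 ± 0.60, adjusted p = 0.0098). *GEN1*, another resolving nuclease, had 1.0, 0.80 and 0.95 FPKM in *flpl1* and 1.08, 1.29 and 0.69 FPKM in Col-0.

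Histone chaperones and chromatin factors formed the largest named role with 25 genes. Of these, 8 were upregulated (32.0%) and 2 downregulated (8.0%), beside 19.8% and 14.4% of all genes tested, and *TSK* reached the minimum mean count in *flpl1* only. *TSK* (TONSOKU), a protein that binds newly laid down histones at replication forks, had 1.08, 1.0 and 1.12 FPKM in *flpl1* and 0.09, 0.06 and 0.04 FPKM in Col-0 (4.21 ± 0.37 SE, adjusted p = 0.00014). FAS1 and FAS2 are subunits of chromatin assembly factor 1, which places histones on new DNA. *FAS2* had 4.22, 3.80 and 2.74 FPKM in *flpl1* and 0.26, 0.32 and 0.33 FPKM in Col-0 (3.72 ± 0.29, adjusted p = 0.000107). *FAS1* had 4.37, 3.93 and 2.89 FPKM in *flpl1* and 1.53, 1.33 and 1.20 FPKM in Col-0 (1.6 ± 0.24, adjusted p = 0.00102). Thus the partner with the lower Col-0 level, *FAS2*, had the larger log2 fold change.

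The nucleosome assembly genes *NAP1;1*, *NAP1;2* and *NAP1;3* were upregulated with log2 fold changes of 1.06, 1.20 and 1.39. *NAP1;2* was the most strongly expressed DNA repair gene on Chr. 2, with 159, 134 and 125 FPKM in *flpl1* and 55.6, 77.8 and 70.1 FPKM in Col-0. The other gene of the family was downregulated. *NAP1;4* had 1.39, 1.25 and 1.84 FPKM in *flpl1* and 4.77, 3.11 and 4.63 FPKM in Col-0 (-1.34 ± 0.31 SE, adjusted p = 0.00746). *INO80*, the catalytic subunit of a chromatin remodelling complex that acts in recombination, had 9.42, 10.9 and 11.5 FPKM in *flpl1* and 23.6, 31.1 and 26.0 FPKM in Col-0 (-1.19 ± 0.12, adjusted p = 0.000237).

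Of the 16 genes of cohesin and the SMC5/6 complex, which hold chromatids together during repair, 12 did not pass the test and the median log2 fold change was -0.31. Of all 18638 genes tested, 7165 did not pass. In this role 2 genes were upregulated (12.5%) and none was downregulated, beside 19.8% and 14.4% of all genes tested. The exceptions upward were *SMC6A*, with 1.05, 1.55 and 0.96 FPKM in *flpl1* and 0.18, 0.14 and 0.16 FPKM in Col-0 (3.03 ± 0.35, adjusted p = 0.000381), and *SNI1* (2.78 ± 0.53, adjusted p = 0.00298). *SNI1* reached the minimum mean count in *flpl1* only. It also overlaps 126 bp of a gene on the opposite strand with more counts, and its value is less certain. The second SMC6 gene, *SMC6B*, was the more abundant copy in both groups, with 3.86, 4.30 and 5.73 FPKM in *flpl1* and 3.07, 7.12 and 5.55 FPKM in Col-0 and a log2 fold change of -0.01 ± 0.26.

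The sequences upstream of the genes were searched for the sites of E2F factors, which switch on genes for DNA replication, and for the palindromic site of SOG1. The search covered 300 bases before the gene start of the RefSeq annotation on both strands, for the letters TTTCCCGC, TTTGGCGC, TTTCGCGC and TTTGCCGC (E2F) and for CTT and AAG separated by 7 bases (SOG1). An E2F motif was found for 12 of the 48 upregulated DNA repair genes, none of the 10 downregulated ones and 4 of the other 124. That is 25% of the upregulated DNA repair genes, beside 2.65% of all upregulated genes and 1.65% of all genes tested with a window. Of the 12 genes, 6 reached the minimum mean count in *flpl1* only (*RPA70D*, *RPA3A*, *RPA70B*, *RECQI1*, *SNI1* and *COM1*). Among the upregulated genes that reached it in both groups, the motif was found for 6 of 35 DNA repair genes, or 17.1%, beside 2.14% of genes of all kinds. The SOG1 motif was found for 4 of the 48, or 8.33%, beside 10.6% of all genes tested. A match is a description of the letters and does not show that a factor binds there. The 4 genes with a motif that were not upregulated by at least 2-fold were *ROS1*, *MCM8*, *COP1* and *PPX2*.

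The last 130 bases before the gene start are shown for the 9 upregulated genes with an E2F motif whose stretch does not overlap another gene, so that the place and the strand of the motif can be compared. The motif is in capitals and appears as its reverse complement where it lies on the other strand. Sequences and coordinates are from RefSeq, build TAIR10.1, and read 5′ to 3′ toward the gene.
RPA70D (chr5:24552856-24552985, minus strand): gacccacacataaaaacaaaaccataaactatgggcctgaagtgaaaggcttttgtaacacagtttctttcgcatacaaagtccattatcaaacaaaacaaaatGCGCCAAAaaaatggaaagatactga
FAS2 (chr5:25833035-25833164, plus strand): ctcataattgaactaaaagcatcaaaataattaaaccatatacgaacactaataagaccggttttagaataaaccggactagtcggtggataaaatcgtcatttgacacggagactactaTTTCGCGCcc
RECQI1 (chr3:1697949-1698078, plus strand): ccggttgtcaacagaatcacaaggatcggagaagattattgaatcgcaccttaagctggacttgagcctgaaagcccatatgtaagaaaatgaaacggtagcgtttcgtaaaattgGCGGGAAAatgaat
AT3G42660 (chr3:14751150-14751279, plus strand): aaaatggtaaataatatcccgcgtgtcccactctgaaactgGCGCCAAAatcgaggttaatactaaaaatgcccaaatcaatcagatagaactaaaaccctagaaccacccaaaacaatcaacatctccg
SMC6A (chr5:2422653-2422782, plus strand): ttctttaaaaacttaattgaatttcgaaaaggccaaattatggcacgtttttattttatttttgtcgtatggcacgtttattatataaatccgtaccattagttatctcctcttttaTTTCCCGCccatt
SNI1 (chr4:10192779-10192908, plus strand): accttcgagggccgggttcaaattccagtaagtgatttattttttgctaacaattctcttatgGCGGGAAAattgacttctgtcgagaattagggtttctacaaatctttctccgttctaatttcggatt
BRCA2A (chr4:10505-10634, minus strand): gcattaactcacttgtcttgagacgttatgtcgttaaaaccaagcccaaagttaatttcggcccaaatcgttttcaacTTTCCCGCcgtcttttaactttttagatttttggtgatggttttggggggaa
FAS1 (chr1:24324092-24324221, minus strand): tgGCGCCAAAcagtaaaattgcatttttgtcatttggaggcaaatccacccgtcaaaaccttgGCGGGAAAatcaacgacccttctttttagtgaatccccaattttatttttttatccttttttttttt
COM1 (chr3:19325905-19326034, plus strand): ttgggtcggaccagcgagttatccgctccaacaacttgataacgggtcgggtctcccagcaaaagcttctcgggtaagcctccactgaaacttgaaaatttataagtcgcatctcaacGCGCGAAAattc
The motif lay 26 bases before the gene start in *RPA70D* and between 10 and 14 bases before it in *FAS2*, *RECQI1*, *SMC6A* and *COM1*. *FAS1* held 2 motifs. The windows of *RPA3A*, *RPA70B* and *BRCA2B* also held a motif, at 9, 47 and 14 bases, but overlap a neighbouring gene and are not shown. AT3G42660, annotated as a WD-40 repeat protein, had 4.16, 3.89 and 2.94 FPKM in *flpl1* and 0.26, 0.62 and 0.45 FPKM in Col-0 (3.23 ± 0.31 SE, adjusted p = 0.000186).

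**Figure D3:**
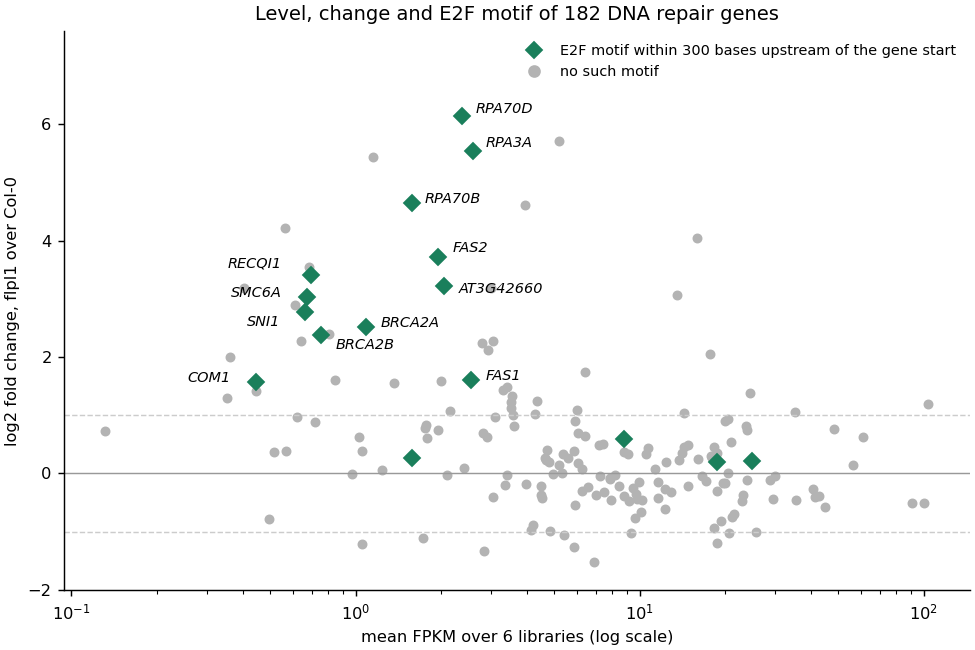
Log2 fold change (*flpl1* over Col-0, y axis) against the mean FPKM over the 6 libraries (x axis, log scale) of the 182 DNA repair genes, with green diamonds for the 16 genes with an E2F motif within 300 bases upstream of the gene start. The 12 named diamonds lie above the dashed line of a 2-fold rise and under 5 FPKM.

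Nucleotide excision repair had more lower than higher genes in *flpl1*. Of the 13 genes of this role, which includes the CUL4-DDB1 ubiquitin ligase, none was upregulated by at least 2-fold, and the median log2 fold change was -0.37. With an adjusted p under 0.05, 7 were lower (53.8%) and 2 higher (15.4%), beside 30.7% and 30.9% of all genes tested. *DDB2*, which recognises UV lesions, had the largest fall of all DNA repair genes, with 3.72, 2.63 and 3.48 FPKM in *flpl1* and 7.36, 12.3 and 11.95 FPKM in Col-0 (-1.52 ± 0.20 SE, adjusted p = 0.000654). *ERCC1*, a subunit of the nuclease that cuts beside the lesion, had 11.6, 11.4 and 12.1 FPKM in *flpl1* and 20.55, 27.5 and 26.8 FPKM in Col-0 (-0.94 ± 0.11, adjusted p = 0.000386). All *flpl1* plants were below all Col-0 plants for both genes.

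*CUL4*, the scaffold of the ligase and the most abundant DNA repair gene on Chr. 5, averaged 33.6 ± 3.83 FPKM in *flpl1* and 55.8 ± 8.44 FPKM in Col-0 (SD, n = 3 each; -0.57 ± 0.14 SE, adjusted p = 0.00787). *DET1*, another component and the most abundant one on Chr. 4, had a log2 fold change of -0.46 ± 0.11 (adjusted p = 0.00938). *DDB1A* had 17.45, 18.8 and 20.6 FPKM in *flpl1* and 22.2, 33.2 and 26.5 FPKM in Col-0 (-0.37 ± 0.13, adjusted p = 0.0409). Its adjusted p was 0.0644 to 0.115 without any 1 library other than Col-0 replicate 1. It was 0.113 with scaling factors from genes outside Chr. 2 and 0.0914 with a mean FPKM of at least 5. The other DDB1 gene, *DDB1B*, went the other way, with 7.82, 6.90 and 6.69 FPKM in *flpl1* and 4.15, 5.69 and 4.97 FPKM in Col-0 (0.69 ± 0.13, adjusted p = 0.00251). *UVH1*, the partner of ERCC1, and the helicase gene *UVH6* did not pass the test, at -0.24 ± 0.13 and -0.22 ± 0.14. The 2 genes of repair coupled to transcription were higher or near their Col-0 level, with 0.40 ± 0.11 for *CHR8* (adjusted p = 0.0146; 0.0503 without *flpl1* replicate 3) and 0.33 ± 0.13 for *CSA-1*, which did not pass. In the list of 12 nucleotide excision repair genes, which adds genes without the terms, 3 were downregulated and none was upregulated among the 11 tested, with a median of -0.37.

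**Figure D4:**
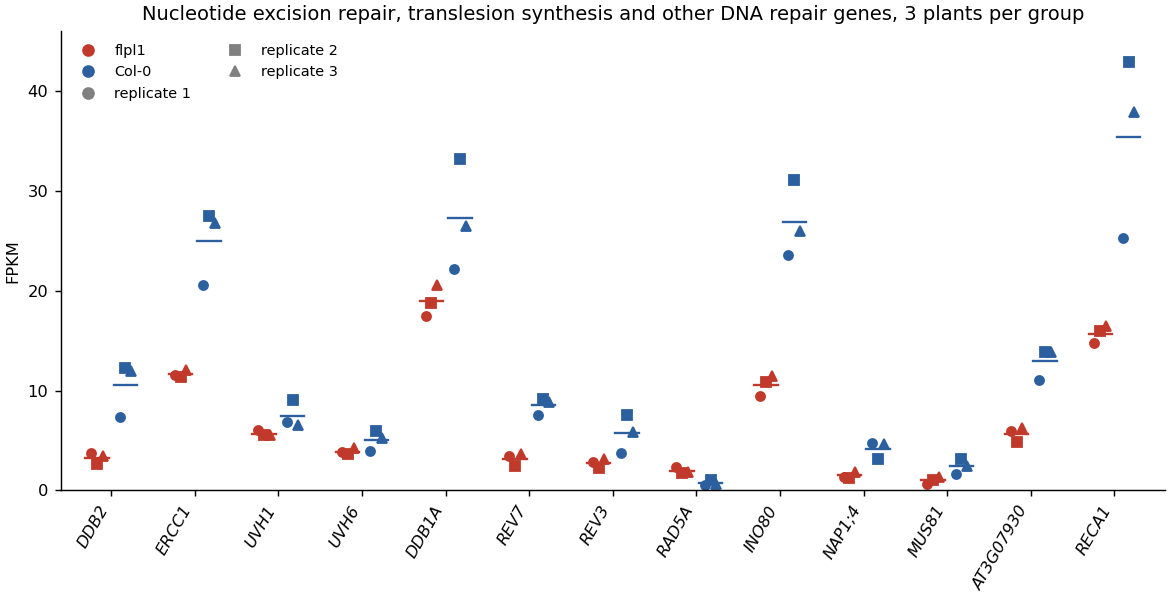
FPKM (y axis) of genes of nucleotide excision repair and translesion synthesis and of other DNA repair genes in 3 *flpl1* plants (red, left of each pair) and 3 Col-0 plants (blue, right). Symbols stand for the replicates and bars for the group means. *RAD5A* is the only gene shown with higher values in *flpl1*, and *UVH1* and *UVH6* did not pass the test.

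Translesion polymerases copy past lesions that are not removed. *REV7*, a subunit of polymerase zeta, had 3.43, 2.49 and 3.63 FPKM in *flpl1* and 7.58, 9.13 and 8.86 FPKM in Col-0 (-1.27 ± 0.20 SE, adjusted p = 0.00123). Its catalytic subunit gene *REV3* had 2.82, 2.28 and 3.10 FPKM in *flpl1* and 3.78, 7.51 and 5.82 FPKM in Col-0 (-0.89 ± 0.21, adjusted p = 0.00716). Both subunits were thus lower in every *flpl1* plant. *RAD5A*, a helicase and ubiquitin ligase of the error-free branch of tolerance, was upregulated, with 2.35, 1.77 and 1.81 FPKM in *flpl1* and 0.55, 1.04 and 0.66 FPKM in Col-0 (1.56 ± 0.26, adjusted p = 0.00167).

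The ubiquitin-conjugating enzymes *UBC1* and *UBC2*, related to yeast Rad6, were among the most abundant DNA repair genes and were lower together. *UBC1* on Chr. 1 had 65.1, 66.7 and 81.1 FPKM in *flpl1* and 105, 115 and 113 FPKM in Col-0 (-0.50 ± 0.12 SE, adjusted p = 0.00704). *UBC2* on Chr. 2 had 72.6, 75.5 and 85.1 FPKM in *flpl1* and 112, 125 and 132 FPKM in Col-0 (-0.51 ± 0.11, adjusted p = 0.00512). Another gene of this role, *UBC3* on Chr. 5, did not pass the test (-0.12 ± 0.11, adjusted p = 0.36).

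Of the 8 genes of base excision repair and alkylation reversal, 4 were higher and 1 was lower with the adjusted p alone. AT3G14890, annotated as a phosphoesterase, had 5.02, 6.03 and 4.94 FPKM in *flpl1* and 0.60, 0.71 and 0.65 FPKM in Col-0 (3.18 ± 0.19 SE, adjusted p = 6.96e-05). AT3G07930, annotated as a DNA glycosylase, had 5.98, 4.88 and 6.21 FPKM in *flpl1* and 11.1, 13.8 and 13.8 FPKM in Col-0 (-1.03 ± 0.13, adjusted p = 0.000554). The demethylating glycosylase gene *ROS1* had 7.6, 12.4 and 10.75 FPKM in *flpl1* and 8.29, 6.30 and 7.63 FPKM in Col-0, with overlapping groups (0.60 ± 0.22, adjusted p = 0.0459), and gave 0.0968 to 0.156 without *flpl1* replicate 2 or 3 or Col-0 replicate 2 or 3. *MMH-1*, a DNA glycosylase, had a log2 fold change of 0.51 ± 0.13 (adjusted p = 0.00976), but 1608 bp of it overlap an opposite-strand gene with more counts. *ALKBH2*, a demethylase that reverses alkylation, had 5.0, 3.87 and 4.48 FPKM in *flpl1* and 2.76, 2.14 and 3.45 FPKM in Col-0 (0.82 ± 0.26, adjusted p = 0.0266), and gave 0.0584 to 0.0856 without *flpl1* replicate 1 or 3 or Col-0 replicate 2. *OGG1*, which removes oxidised guanine, did not pass the test (0.14 ± 0.16). In the mismatch repair list, none of whose 10 genes carries the terms, 1 of the 9 tested genes passed with the adjusted p alone and none at 2-fold. The gene that passed was higher in *flpl1* and makes 11.1% of those tested, beside 30.9% of all genes tested.

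Direct end joining had genes in both directions. *KU70* and *KU80*, which bind broken ends, had log2 fold changes of -0.10 ± 0.18 and -0.15 ± 0.13 SE and did not pass the test. The DNA ligase gene *LIG6* had 5.66, 6.35 and 6.87 FPKM in *flpl1* and 8.4, 11.2 and 9.21 FPKM in Col-0 (-0.46 ± 0.12, adjusted p = 0.0109). *LIG4*, the ligase of end joining, which does not carry the terms, had -0.40 ± 0.15 (adjusted p = 0.0455), but 0.0547 with DESeq2, 0.113 with scaling factors from genes outside Chr. 2, and 0.0571 to 0.123 without any 1 library other than Col-0 replicate 1. *PARP1*, a sensor of strand breaks on Chr. 2, had 4.98, 5.02 and 3.94 FPKM in *flpl1* and 1.28, 1.29 and 0.97 FPKM in Col-0 (2.12 ± 0.20, adjusted p = 0.000193).

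Of the 5 damage kinase, phosphatase and checkpoint genes, none was called at 2-fold. *ATM*, the kinase activated by double-strand breaks, had 3.23, 3.07 and 3.25 FPKM in *flpl1* and 2.67, 4.75 and 3.42 FPKM in Col-0. *ATR*, the kinase activated by stalled forks, had 0.28, 0.32 and 0.42 FPKM in *flpl1* and 0.46, 0.94 and 0.56 FPKM in Col-0 (-0.78 ± 0.29 SE, adjusted p = 0.0454). The call of *ATR* was lost without *flpl1* replicate 1 or 2 and without Col-0 replicate 2 or 3, with adjusted p of 0.0598 to 0.148. The clamp loader gene *RAD17* (-0.42 ± 0.19) and *SOG1*, which does not carry the terms (0.34 ± 0.22), did not pass.

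Genes for organelle DNA were mixed. The Whirly proteins bind single-stranded DNA in plastids (WHY1 and WHY3) or mitochondria (WHY2). *WHY3* had 41.5, 20.1 and 21.85 FPKM in *flpl1* and 5.46, 10.02 and 7.05 FPKM in Col-0 (2.06 ± 0.32 SE, adjusted p = 0.00126), and *WHY1* had 22.4, 17.2 and 16.1 FPKM in *flpl1* and 7.90, 12.4 and 10.04 FPKM in Col-0 (1.04 ± 0.18, adjusted p = 0.00213). *WHY2* overlapped between the groups (0.75 ± 0.28, adjusted p = 0.0468) and gave 0.0595 to 0.149 without any 1 library other than Col-0 replicate 2.

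RecA proteins carry out recombination in the organelles. The plastid gene *RECA1* had 14.7, 16.0 and 16.4 FPKM in *flpl1* and 25.3, 42.9 and 37.9 FPKM in Col-0 (-1.01 ± 0.16 SE, adjusted p = 0.00119). It overlaps 51 bp of an opposite-strand gene with a mean count of 142181.5, far above its own 840.8, so its counts may include reads of that neighbour. *RECA2* was upregulated, with 4.42, 4.32 and 5.12 FPKM in *flpl1* and 1.27, 3.83 and 2.10 FPKM in Col-0 (1.12 ± 0.33, adjusted p = 0.0204; 0.0562 without *flpl1* replicate 3 and 0.0658 without Col-0 replicate 3). *RECA3* did not pass the test (0.33 ± 0.15).

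Some of the largest rises were in genes annotated as leucine-rich repeat proteins. AT5G12940, a leucine-rich repeat protein, had 10.95, 9.07 and 10.4 FPKM in *flpl1* and 0.31, 0.07 and 0.24 FPKM in Col-0 (5.72 ± 0.40 SE, adjusted p = 9e-05). These Col-0 values stand for 10, 2 and 6 counts. The gene reached the minimum mean count in *flpl1* only, where 90.3% of all tested genes were upregulated. *DRT100*, another leucine-rich repeat protein that was first isolated by its effect on repair-deficient *Escherichia coli*, had 29.4, 32.6 and 27.6 FPKM in *flpl1* and 3.28, 0.61 and 1.97 FPKM in Col-0 (4.04 ± 0.52, adjusted p = 0.000577). Another one, AT3G20820, was the most abundant DNA repair gene on Chr. 3, at 58.6 ± 8.08 FPKM in *flpl1* and 38.1 ± 6.85 FPKM in Col-0 (SD, n = 3 each; 0.76 ± 0.21 SE, adjusted p = 0.0151). The remaining downregulated genes were AT5G10950 (-1.02 ± 0.12, adjusted p = 0.000414), AT3G25495 (-1.06 ± 0.23, adjusted p = 0.0051) and AT1G19750 (-1.22 ± 0.43, adjusted p = 0.0383). With scaling factors from genes outside Chr. 2, AT3G25495, AT3G07930, AT5G10950 and *RECA1* kept an adjusted p under 0.05 but fell short of 2-fold, at -0.95, -0.93, -0.91 and -0.91, and AT1G19750 had an adjusted p of 0.0521. The call of AT1G19750 was lost without *flpl1* replicate 1 or 2 and without Col-0 replicate 2 or 3, with adjusted p of 0.0839 to 0.137.

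The remaining roles were described by smaller differences. Of the 10 genes of the clamp loader, which places the sliding clamp on DNA, and the related STICHEL family, 4 were upregulated and none was downregulated. The share upregulated was 40.0%, beside 19.8% of all genes tested. The 4 were AT1G14460, *STI*, *RFC2* and AT4G24790, with log2 fold changes of 1.75, 1.22, 1.07 and 1.02. *RFC2* was thus the only *RFC* gene among them. *RFC2*, a clamp loader subunit, averaged 2.79 FPKM in *flpl1* and 1.49 FPKM in Col-0 (1.07 ± 0.33 SE, adjusted p = 0.0242). Its call was lost without *flpl1* replicate 1 or 2 or Col-0 replicate 1 or 3 (adjusted p of 0.0522 to 0.0727). *RFC1*, *RFC3* and *RFC4* had log2 fold changes of -0.25, -0.22 and 0.43 and did not pass the test, but *RFC1* had an adjusted p of 0.0259 without Col-0 replicate 1 and *RFC4* one of 0.038 without Col-0 replicate 2. Of the 6 genes of the MORC family, ATPases that act in gene silencing, *MORC2* (1.25 ± 0.30, adjusted p = 0.00867) and AT4G24970 (1.43 ± 0.20, adjusted p = 0.000825) were upregulated. None of the 4 SNF2-RING helicase-like genes was called at 2-fold, with log2 fold changes from -0.46 to 0.91. Summed over all 182 genes, the FPKM was 2140, 2030 and 2120 in *flpl1* plants and 1820, 2380 and 2180 in Col-0 plants, so the groups overlapped in total.

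By chromosome, the DNA repair genes of Chr. 2, which *flpl1* carries in an additional copy, had the highest median. The 25 DNA repair genes on Chr. 2 had a median log2 fold change of 0.60, and all 2848 tested genes of that chromosome had 0.55. On Chr. 1, 3, 4 and 5 together, the DNA repair genes had a median of 0.23, against -0.10 for the 15709 tested genes. With the adjusted p alone, 15 of the 25 genes on Chr. 2 were higher, which is 60%, beside 52.1% of all tested genes of Chr. 2, and *UBC2* was the only one lower. At 2-fold, 7 of the 25 or 28.0% were upregulated, beside 32.5% of all tested genes of Chr. 2, and these were *EME1B*, *RPA32A*, *PARP1*, *WHY3*, *STI*, *NAP1;2* and *RECA2*. The other 41 of the 48 upregulated genes and all 10 downregulated ones lay outside Chr. 2, as did 157 of the 182 DNA repair genes. Of the genes of all kinds, 2740 of the 3697 upregulated and 2454 of the 2679 downregulated ones lay on Chr. 1, 3, 4 and 5. Without *flpl1* replicate 1 the median of the Chr. 2 genes was 0.72, and without Col-0 replicate 1 that of the other chromosomes was 0.15.

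**Figure D5:**
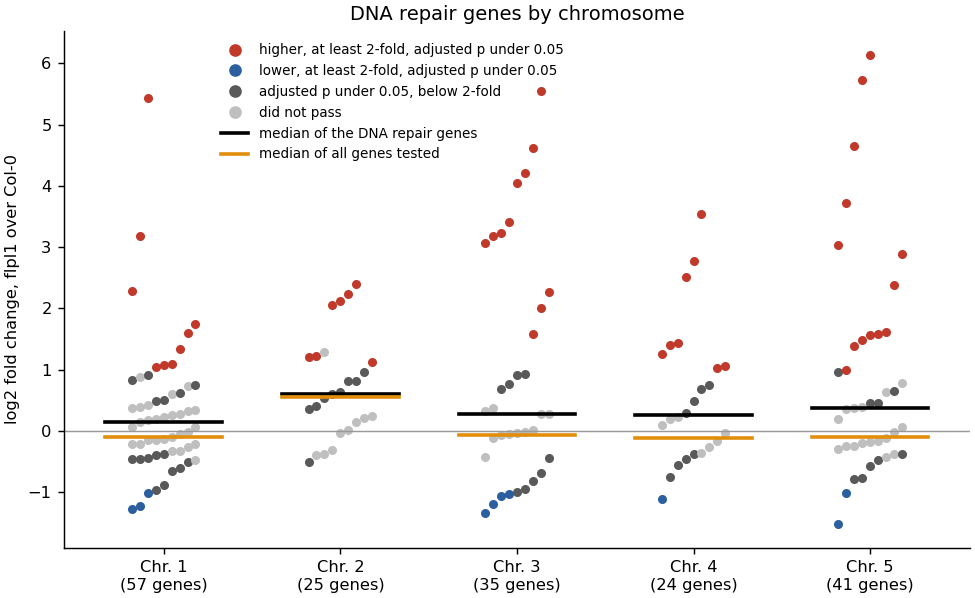
Log2 fold change (*flpl1* over Col-0, y axis) of the DNA repair genes on each chromosome (x axis, number of genes in parentheses), 1 point per gene, coloured by the test result. Black bars mark the median of the DNA repair genes and orange bars that of all tested genes, which are 0.60 and 0.55 on Chr. 2 and 0.14 and -0.10 on Chr. 1.

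Markers of DNA replication and of mitosis moved together with the upregulated genes. Of 15 replication markers, 14 were upregulated and none downregulated, with a median log2 fold change of 4.45, and their summed FPKM was 147, 132 and 102 in *flpl1* plants and 34.6, 46.2 and 44.7 in Col-0 plants. All 9 mitosis markers were upregulated, and their summed FPKM was 29.6, 23.6 and 14.4 in *flpl1* plants, against 2.28, 1.99 and 2.26 in Col-0 plants. *PCNA1*, the sliding clamp of replication, had 10.25, 7.79 and 5.23 FPKM in *flpl1* and 0.08, 0.04 and 0.05 FPKM in Col-0 (7.08 ± 0.47 SE, adjusted p = 8.16e-05). *KNOLLE*, a protein of the forming cell plate, had 7.6, 6.32 and 4.46 FPKM in *flpl1* and 0.51, 0.40 and 0.30 FPKM in Col-0 (4.04 ± 0.35, adjusted p = 0.000141). *flpl1* replicate 1, the plant with the highest value for most upregulated DNA repair genes, also had the highest sums of both marker lists. The summed FPKM of the leaf mesophyll markers had the same order, with 30200, 26000 and 23800 in *flpl1* replicates 1, 2 and 3. The order of the plants was thus not particular to the replication and mitosis markers. In leaf RNA, more dividing cells and more RNA per cell cannot be told apart, and the part of dividing cells in the rises was not tested.

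Known targets of SOG1 in the DNA damage response did not all move one way. Of the 18 genes in this list, 15 were tested, 9 were upregulated and 1 was downregulated, with a median log2 fold change of 2.12. The upregulated members *BRCA1*, *BARD1*, *TSO2*, *PARP1* and *RPA1E* are described above, and *PARP2*, which does not carry the terms, had 4.75, 4.10 and 4.08 FPKM in *flpl1* and 0.77, 0.60 and 1.07 FPKM in Col-0 (2.56 ± 0.26 SE, adjusted p = 0.000237). *XRI1* was modestly higher (0.65 ± 0.17, adjusted p = 0.0113). *GMI1*, whose name stands for its induction by gamma rays and mitomycin, had 1.26, 1.6 and 3.56 FPKM in *flpl1* and 1.02, 1.43 and 1.67 FPKM in Col-0, overlapped between the groups and did not pass the test.

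Of the cell cycle inhibitor genes of this list, only *SMR5* had enough counts to be tested. *SMR5* had 0.18, 0.89 and 1.40 FPKM in *flpl1* and 6.50, 8.79 and 26.5 FPKM in Col-0 (-3.90 ± 0.78 SE, adjusted p = 0.0037). *SMR7* was at 0.69, 0.33 and 0.74 FPKM in *flpl1* and 0.67, 1.70 and 0.17 FPKM in Col-0 and had too few counts to be tested, as had *SMR4*, with 2.08, 0.11 and 0.31 FPKM in *flpl1* and 0, 0 and 0.35 FPKM in Col-0. *AGO2*, an Argonaute gene induced by damage, was lower as well, with 4.76, 4.27 and 5.78 FPKM in *flpl1* and 7.77, 12.01 and 11.96 FPKM in Col-0 (-0.94 ± 0.16, adjusted p = 0.00208). *CYCB1;1*, a cyclin in both the SOG1 and the mitosis list, had 0.65, 0.65 and 0.31 FPKM in *flpl1* and 0.10, 0.11 and 0 FPKM in Col-0 (2.97 ± 0.73, adjusted p = 0.00953).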

How the data were processed

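Total RNA of leaves was sequenced by the authors as paired reads, 1 library per plant. Per the labels and the study's methods, reads were trimmed with cutadapt 1.9.1, aligned to TAIR10 with HISAT2 and counted on genes with HTSeq 0.6.1. The gene annotation version, the use of strand and the setting for overlapping genes are not given in the sources used here. The deposited count is the raw number of reads per gene, and the deposited FPKM is the authors' count per kilobase of exonic gene size and per total count on genes, which 100% of the values matched within 0.01 when recomputed. FPKM values are shares of the RNA of a library, not amounts per cell.

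Counts were tested with edgeR 4.0.16 (quasi-likelihood, TMM, filterByExpr, R 4.3.3) on all 6 libraries, with Benjamini-Hochberg adjustment over the 18638 genes tested. All 182 genes passed the filter. Fold changes are fitted log2 values with the standard error as the size of the log2 value over the root of the F statistic. Genes were called upregulated or downregulated at 2-fold or more with an adjusted p under 0.05. The study used DESeq2, which is an alternative here (DESeq2 1.42.0, limma 3.58.1). Counts of 18638 genes were also simulated for *flpl1* against Col-0. Here edgeR called 2 of 50 genes changed by a log2 of 0.585, 18 of 50 changed by 1 and 85 of 100 changed by 2. It also made 11 false calls. In the data a far larger share of genes passed, with 30.9% higher and 30.7% lower by the adjusted p alone. The adjusted p depends on that share, and the part of real differences missed in the data was not tested.

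The genes, lists and tests were chosen with earlier results of these data known. Roles were assigned by hand. Named were the 10 largest rises and falls among genes past both limits with groups apart and a mean FPKM of at least 1 in the higher group, members of the repair lists, Chr. 2 genes that were lower, and the most abundant gene per chromosome. Genes outside the repair terms are from the lists of SOG1 targets, replication and mitosis markers, or complete a complex. Names that complete a gene family or role (*RPA32A*, *RPA32B*, *RPA3B*, *RPA1A*, *FAS1*, *NAP1;1* and *NAP1;3*, *EME1B*, *RECQI1*, *SNI1*, *STI*, *RECQ4B*, *LIG6*, *LIG4*, *MMH-1*, *ALKBH2*, *DDB1B*, *UBC3*, the *RFC* and MORC genes) or hold a motif were chosen after values were seen. AT1G14460 and AT4G24790 were also chosen after values were seen. Gene names were taken from RefSeq synonyms.

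The motif search was planned for a promoter table. As none was at hand, windows were read from the RefSeq TAIR10.1 genome with RefSeq's own gene starts, which differ from the deposited ones for many genes. Near-identical copies were searched with BLAST 2.17.0 (at least 95% identity over 100 bp of exons), and 3 of the 182 genes had one. Of the 182 genes, 32 overlap a gene on the opposite strand, 15 of them one with more counts, and reads of both cannot be told apart without strand. Alternatives were other scalings, filters, tests and pseudocounts, a block for the replicate number, and fits without 1 library. Figures were drawn with matplotlib 3.10.9. 1 gene is not reported here.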

Additional observations from a re-analysis of the deposited data

How the results depend on the processing

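The 182 genes had 48 upregulated and 10 downregulated with edgeR, and DESeq2 and RLE scaling gave the same counts. The number upregulated was 11 when mean FPKM had to reach 5 and 19 with limma on log2(FPKM + 1), and 43 to 50 without 1 library. The first of these are 10.6% and 10.4% of the DNA repair genes tested, beside 16.2% and 13.3% of all genes, whereas it was 26.4% beside 19.8% with edgeR. The number downregulated was 5 with scaling on Chr. 1, 3, 4 and 5, 3 when mean FPKM had to reach 5 and 5 to 14 without 1 library, where 14 was without Col-0 replicate 1. That scaling moved the median of all genes by 0.10. With the adjusted p alone, 74 genes were higher, and 34 under that FPKM filter. Of the repair list members, 15 were upregulated, but 2 under that FPKM filter and 5 with limma on log2(FPKM + 1), and 5 were downregulated, but 3 with the scaling on Chr. 1, 3, 4 and 5, 2 under the filter and 2 to 7 without 1 library. The SOG1 targets had 1 upregulated with that filter and 4 with limma on log2(FPKM + 1), the replication markers 3 with the filter, and the mitosis markers 0 with the filter and 5 with limma on log2(FPKM + 1). The median log2 fold change of the Chr. 2 genes was 0.32 with the filter, 0.31 with limma on log2(FPKM + 1), 0.44 with limma on log2(FPKM + 0.1) and 0.50 to 0.72 without 1 library. On the other chromosomes it was 0.33 with the scaling on Chr. 1, 3, 4 and 5, -0.04 with the filter, 0.06 and 0.09 with limma on log2(FPKM + 1) and log2(FPKM + 0.1), and 0.15 to 0.25 without 1 library. The filter keeps genes by their mean over all libraries and so leaves out most upregulated genes, and the added 1 in log2(FPKM + 1) shrinks the changes of low genes. For other differences the cause was not tested. The median of the other chromosomes thus changed sign with the filter, and no named gene that passed the test did so. With 2 E2F motifs, 10 in place of 12 upregulated genes held one.

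The replicate numbers of the 2 groups did not pair the plants (correlations of same-numbered deviations 0.0253, -0.125 and 0.102). With the replicate block, 47 genes were upregulated and 8 downregulated, and *ROS1* (adjusted p = 0.0995), *WHY2* (0.0897), *RAD51B* (0.082), *ATR* (0.0624), AT1G19750 (0.0586) and *RAD52-2* (0.055) no longer passed. Groups of 3 plants limit the precision, and with few counts in Col-0 the largest fold changes are rough.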
